A study of Mus musculus with 6 samples.

Results

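Undifferentiated spermatogonia are the mitotic male germ cells that include the spermatogonial stem cells and the progenitors derived from them. The account below covers 10 genes, of 54232 in the count table, that mark or regulate these cells: 9 encode transcriptional regulators (*Id4*, *Etv5*, *Bcl6b*, *Pax7*, *Eomes*, *Zbtb16*, *Sall4*, *Sox3* and *Neurog3*) and 1 encodes an adhesion molecule (*Cdh1*). They were chosen by name, for these roles, with earlier results of these data known. RNA was sequenced from whole testes of B6D2F1 mice at postnatal day 12 (P12), with 3 libraries whose label reads *Dis3l2* KO (the KO-labelled group) and 3 whose label reads *Dis3l2* WT (the control group). In the study the mutants are *Stra8-Cre*; *Dis3l2* F/- mice, and the controls are their littermates, whose exact genotypes are not given in the sources used here. *Stra8-Cre* is active in part of the spermatogonia and in all later cells up to preleptotene, and the study states that recombination begins in type A1 spermatogonia, the first differentiating type. The undifferentiated stage precedes that step, and whole-testis libraries mix its cells with deleted germ cells and with somatic cells. As written, the F/- genotype holds 1 deleted allele in all cells of the mutants, undifferentiated and somatic cells included.

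The libraries held 33325483 to 44956193 counts. *Dis3l2* itself, a cytoplasmic exoribonuclease gene, was not called lower in the KO-labelled libraries under edgeR's TMM scaling. It had 31.6, 25.4 and 27.5 CPM (counts scaled to library size) there and 25.8, 23.5 and 23.0 CPM in the control libraries (log2 fold change 0.22, 95% interval -0.01 to 0.46, edgeR adjusted p = 0.136). With libraries scaled to summed somatic cell markers it was called lower (-0.34, 95% interval -0.59 to -0.09, edgeR adjusted p = 0.0226). With the geometric mean of these markers it did not pass (-0.2, edgeR adjusted p = 0.186). Scaled to summed germ cell genes it was called higher (1.44, edgeR adjusted p = 2.6e-09). Its homolog *Dis3*, a ribonuclease of the RNA exosome, had 63.8 ± 4.55 CPM in KO-labelled and 139 ± 7.93 CPM in control libraries (SD, n = 3 each), which is -1.13 on the log2 scale (edgeR adjusted p = 2.7e-07). The sample labels name *Dis3l2* whereas the deposited design sentence names *Dis3*, so the libraries go by their labels here. A count over a whole gene and testis does not by itself show which gene was deleted in part of the cells, and the study's other assays of *Dis3l2* were not analysed here. The germ cell genes described below differed by -1.66 to -0.06, a wide range that includes the value of *Dis3*. Scaled to the sum of these genes *Dis3* was at 0.07 (edgeR adjusted p = 0.668), and scaled to their geometric mean at -0.33 (edgeR adjusted p = 0.0284). The part of the germ cell level in the fall of *Dis3* was not tested. CPM are counts relative to the library total, corrected by edgeR's TMM factor, and SE stands for standard error. A log2 fold change is KO-labelled over control, and a gene is called higher or lower where its p, adjusted by Benjamini-Hochberg over all 20327 genes tested, is under 0.05.

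Spermatogonial stem cells renew under GDNF, a growth factor of Sertoli and other somatic cells that acts through the receptor pair GFRA1 and RET and induces *Etv5*, *Bcl6b* and *Lhx1* in cultured stem spermatogonia. ID4, PAX7 and EOMES mark small subsets of the most primitive cells, PLZF (the product of *Zbtb16*), SALL4 and E-cadherin (the product of *Cdh1*) are found over the whole undifferentiated pool, and SOX3 and NEUROG3 mark progenitors that approach the retinoic acid-driven step to differentiating, KIT-positive cells. Some of these genes are not specific to germ cells: *Etv5* is also made by Sertoli cells, and *Id4* by several somatic types. In whole-testis RNA, fewer cells of a type and less RNA per cell cannot be told apart.

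All 10 genes passed the filter on low counts. Under TMM scaling *Eomes*, *Cdh1*, *Etv5* and *Bcl6b* rose and *Sox3* fell in KO-labelled libraries, while *Id4*, *Pax7*, *Zbtb16*, *Sall4* and *Neurog3* did not pass the test. The 5 genes called are 50% of the 10, beside 32.7% of all genes tested; the share called higher over all genes was 16.2% and the share called lower was 16.5%. The median log2 fold change was 0.50 over the 10 genes and -0.02 over all genes. The CPM of the KO-labelled libraries lay wholly above or wholly below those of the control libraries for 5 of the 10 genes, a share near the 45.5% of all genes. Scaling moves some of these calls: with libraries scaled to somatic cell markers *Etv5* and *Bcl6b* no longer passed and *Id4*, *Zbtb16*, *Sall4* and *Sox3* were lower, and with libraries scaled to germ cell genes all 10 were higher, *Sox3* included. Over all genes tested, 1.27% were called higher and 56.6% lower with somatic scaling, and 75.1% were called higher with germ cell scaling.

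**Figure D1:**
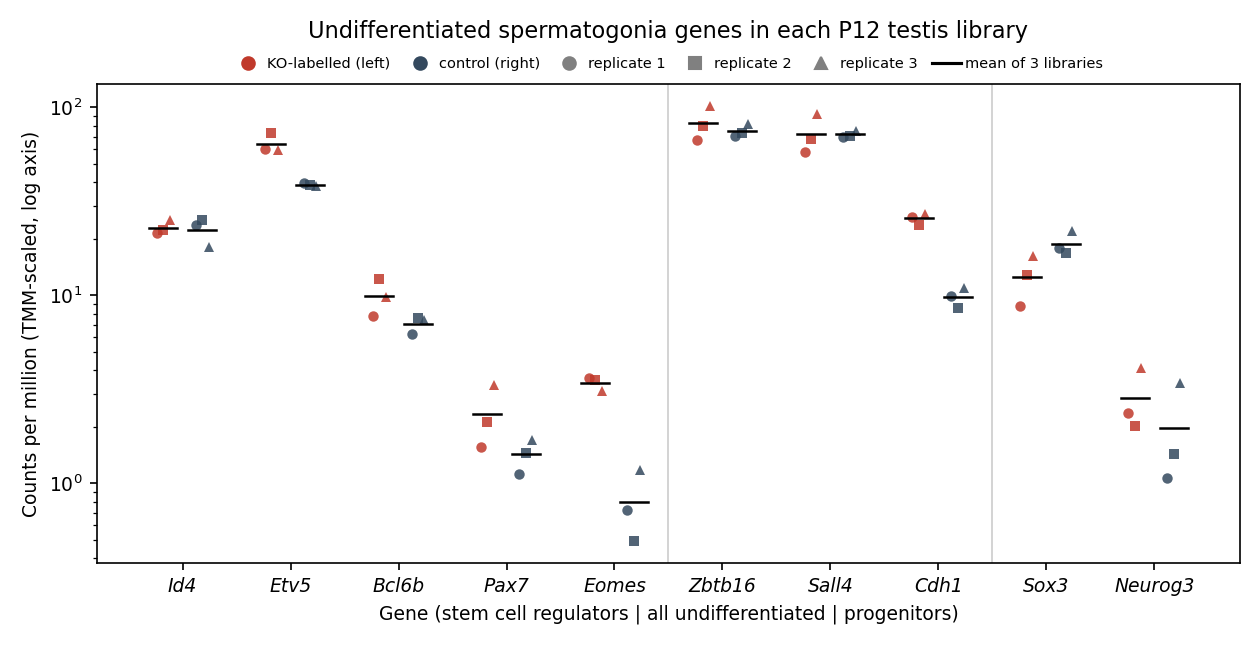
CPM (TMM-scaled, log axis) of the 10 genes in each library, with the KO-labelled libraries left of the control libraries; marker shapes stand for replicate numbers and lines for means of 3 libraries. The KO-labelled libraries lie above every control library for *Etv5*, *Bcl6b*, *Eomes* and *Cdh1*, and below every control library for *Sox3*, from 8.75 to 16.2 CPM against 16.9 to 21.9 CPM.

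Among the genes of stem cell regulation, *Eomes* had the largest difference. It encodes a T-box transcription factor, best known from early embryos and lymphocytes, that marks a subset of GFRA1-positive spermatogonia (ENSMUSG00000032446.14, chromosome 9, 118478212 to 118486132 on GRCm38). It had 3.66, 3.53 and 3.12 CPM in KO-labelled libraries, against 0.720, 0.494 and 1.18 CPM in control libraries. The groups were far apart, and the lowest KO-labelled library stood above the highest control library. The level was low, from 119 to 151 counts per KO-labelled library and from 21 to 52 per control library. The log2 fold change was 2.09 (SE 0.32, 95% interval 1.42 to 2.77, edgeR adjusted p = 1.6e-04), or 4.27-fold. An antisense gene overlaps *Eomes* on the other strand and reached at most 13 counts in a library. *Golga4*, the next protein-coding gene along the chromosome within 60000 bases, was at 0.18 on the log2 scale (edgeR adjusted p = 0.0959).

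*Etv5* encodes an ETS-family transcription factor required for stem cell self-renewal in mice (ENSMUSG00000013089.15, chromosome 16, 22381309 to 22439719). It had 60.0, 72.8 and 59.1 CPM in KO-labelled libraries and 39.6, 38.8 and 38.3 CPM in control libraries. The control libraries had a coefficient of variation of 1.61%, and all 3 KO-labelled libraries were higher. On the log2 scale *Etv5* was higher by 0.72 (SE 0.10, 95% interval 0.51 to 0.93, edgeR adjusted p = 5.8e-05). Sertoli cells also make *Etv5*, so its ratio to the Sertoli cell gene *Sox9* in the same library is given as a description. The ratio was 0.0600, 0.0653 and 0.0559 in KO-labelled libraries, against 0.0649, 0.0612 and 0.0597 in control libraries. These ratios overlapped between the groups. *Sox9* itself was at 0.75 on the log2 scale, close to *Etv5*. The 10 Sertoli cell genes described below ranged from 0.33 (*Wt1*) to 1.56 (*Amh*), so the overlap depends on the gene chosen as denominator. The part of the Sertoli cells in the rise of *Etv5* was not tested.

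*Bcl6b* encodes a BTB zinc-finger repressor, one of the GDNF-responsive genes (ENSMUSG00000000317.11, chromosome 11, 70224128 to 70229798). It had 7.78, 12.3 and 9.77 CPM in KO-labelled libraries and 6.25, 7.58 and 7.45 CPM in control libraries. The groups did not overlap, although the lowest KO-labelled library was only just above the highest control library. *Bcl6b* was higher by 0.49 on the log2 scale (SE 0.18, 95% interval 0.11 to 0.87, edgeR adjusted p = 0.0485), close to the threshold. The call was lost without KO-labelled replicate 2 (adjusted p = 0.242) or 3 (0.0583) and without control replicate 1 (0.173), 2 (0.0587) or 3 (0.0775), and it was lost with limma-voom (0.0590). With libraries scaled to somatic cell markers *Bcl6b* was at -0.08 (edgeR adjusted p = 0.725). Whole-testis RNA does not tell which cells made *Bcl6b*, and the part of somatic cells in its rise was not tested.

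*Id4* encodes an inhibitor of DNA binding, a helix-loop-helix protein that lacks a basic region and titrates E proteins, and marks the fraction of spermatogonia richest in stem cells (ENSMUSG00000021379.2, chromosome 13, 48261228 to 48266026). It had 21.4, 22.2 and 25.1 CPM in KO-labelled libraries and 23.6, 25.1 and 18.1 CPM in control libraries. The groups overlapped over nearly their whole range. On the log2 scale the difference was 0.04 with a 95% interval from -0.24 to 0.32 (edgeR adjusted p = 0.836), so that neither a small rise nor a small fall lay outside the interval.

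*Pax7* encodes a paired-box factor, known both from rare single spermatogonia and from the satellite cells of skeletal muscle (ENSMUSG00000028736.13, chromosome 4, 139737062 to 139833528). It had 1.57, 2.12 and 3.33 CPM in KO-labelled libraries and 1.12, 1.46 and 1.70 CPM in control libraries, on 57 to 127 and 39 to 75 counts per library. The lowest KO-labelled library lay within the control range and the other 2 above it. On the log2 scale the difference was 0.71 (SE 0.32, 95% interval 0.02 to 1.39), which did not pass (edgeR adjusted p = 0.107). Without KO-labelled replicate 1, the lowest of its group, it was 0.93 and passed (edgeR adjusted p = 0.0363), and without KO-labelled replicate 3, the highest, it was 0.38 (95% interval -0.33 to 1.09, adjusted p = 0.434). The muscle genes *Myf5*, *Myod1*, *Myog*, *Ckm* and *Acta1* together had 0.314 to 0.537 CPM in KO-labelled and 0.374 to 0.999 CPM in control libraries. None of the 5 passed the filter on low counts. *Pax7* was itself low but above this sum in every library, at 1.57 to 3.33 CPM in KO-labelled and 1.12 to 1.70 CPM in control libraries. The part of muscle cells in the *Pax7* counts was not tested.

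Promoter bases are shown for *Eomes*, the gene with the largest difference, and for *Id4*, one of those whose groups overlapped. RefSeq promoters (GRCm38.p6) were at hand for 5 of the 10 genes. The 250 bases before the RefSeq start are printed in the direction of the gene, and capitals mark the CCAAT box (which reads ATTGG where it lies on the other strand) and the motif TATAA.
*Eomes*, chr9:118477939-118478188, plus strand: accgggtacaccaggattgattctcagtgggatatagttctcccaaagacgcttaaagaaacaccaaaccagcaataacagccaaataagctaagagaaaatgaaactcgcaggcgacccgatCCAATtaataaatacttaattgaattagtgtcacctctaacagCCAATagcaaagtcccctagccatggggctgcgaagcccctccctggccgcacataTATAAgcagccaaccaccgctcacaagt
*Id4*, chr13:48260866-48261115, plus strand: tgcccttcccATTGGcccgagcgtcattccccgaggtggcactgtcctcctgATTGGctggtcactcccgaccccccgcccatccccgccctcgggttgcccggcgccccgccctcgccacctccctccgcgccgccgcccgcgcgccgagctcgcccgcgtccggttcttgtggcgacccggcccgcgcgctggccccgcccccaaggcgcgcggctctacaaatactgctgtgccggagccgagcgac
The *Eomes* window was 46.4% G and C and held 2 CCAAT matches and 1 TATAA match, whose first base lay 28 bases before the start. The *Id4* window was 75.6% G and C and held 2 CCAAT matches, both on the other strand, and 0 TATAA matches. Over the windows of 27025 genes, 34.5% held CCAAT and 23.5% held TATAA on either strand, and no match of either motif overlapped the other in the windows printed. These matches describe the sequence and were not related to the counts.

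Of the genes of the whole undifferentiated pool, *Cdh1* rose in every KO-labelled library. It encodes E-cadherin, the calcium-dependent adhesion molecule of epithelia by which undifferentiated spermatogonia are often sorted (ENSMUSG00000000303.12, chromosome 8, 106603351 to 106670246). It had 26.2, 23.8 and 27.1 CPM in KO-labelled libraries and 9.99, 8.56 and 11 CPM in control libraries. Every KO-labelled library was above every control library by a margin wider than the spread of either group. *Cdh1* was higher by 1.38 on the log2 scale (SE 0.13, 95% interval 1.11 to 1.65, edgeR adjusted p = 2.4e-06), or 2.60-fold. *Cdh3*, the P-cadherin gene on the same strand 46054 bases away, was at -0.09 on the log2 scale (edgeR adjusted p = 0.589). *Cdh1* is also a gene of epithelia: of *Epcam*, *Krt8*, *Krt18*, *Krt19*, *Pax8*, *Cldn3* and *Cldn4*, 6 were tested, 0 were higher and 1, *Epcam*, was lower (log2 fold change -0.91, adjusted p = 2.7e-06). By an unadjusted edgeR p under 0.05, 0 were higher, and DESeq2 called 0 higher. Their summed level was 41.2 to 46.7 CPM in KO-labelled and 70.4 to 76.9 CPM in control libraries, most of it *Epcam*, which spermatogonia also make. The median log2 fold change of the 6 was 0.61: *Krt8* (1.28), *Krt19* (1.11), *Krt18* (0.95) and *Pax8* (0.27) were above 0 without passing, on at most 109 counts per library for the 3 keratins. For *Krt18* every KO-labelled value exceeded every control value. *Krt19* passed without KO-labelled replicate 2 (log2 fold change 1.6, edgeR adjusted p = 0.0295) and with no filter on low counts (1.13, 0.0283). The part of epithelial cells in the rise of *Cdh1* was not tested.

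*Zbtb16* encodes PLZF, a BTB zinc-finger repressor needed to maintain the undifferentiated pool (ENSMUSG00000066687.5, chromosome 9, 48654297 to 48836222). It had 67.2, 79.3 and 102 CPM in KO-labelled libraries and 70.9, 73.2 and 81.8 CPM in control libraries. The KO-labelled libraries lay on both sides of the control range. On the log2 scale the difference was 0.14 (95% interval -0.13 to 0.40, edgeR adjusted p = 0.436).

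*Sall4* encodes a zinc-finger factor of pluripotent and germ cells that binds PLZF (ENSMUSG00000027547.17, chromosome 2, 168748332 to 168767943). It had 57.9, 67.6 and 92.4 CPM in KO-labelled libraries and 69.8, 70.5 and 75.3 CPM in control libraries. Of the KO-labelled libraries, 2 lay below and 1 above the control range. The difference on the log2 scale was 0.01 (95% interval -0.26 to 0.29, edgeR adjusted p = 0.945).

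Of the progenitor genes, *Sox3* fell and *Neurog3* did not pass the test. *Sox3* encodes an SRY-related factor of spermatogonia that are committed to differentiate (ENSMUSG00000045179.9, chromosome X, 60891366 to 60893430). It had 8.75, 12.8 and 16.2 CPM in KO-labelled libraries and 17.8, 16.9 and 21.9 CPM in control libraries. All KO-labelled libraries were below all control libraries, replicate 3 of the KO-labelled group by a narrow margin. The log2 fold change was -0.59 (SE 0.18, 95% interval -0.98 to -0.19, edgeR adjusted p = 0.0238). The call was lost without KO-labelled replicate 1 (adjusted p = 0.0819) or 2 (0.0607) and without control replicate 3 (0.107).

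*Neurog3* encodes a basic helix-loop-helix factor of progenitors on the way to differentiation, also known from the endocrine pancreas (ENSMUSG00000044312.4, chromosome 10, 62133090 to 62134763). It had 2.37, 2.03 and 4.11 CPM in KO-labelled libraries and 1.07, 1.44 and 3.41 CPM in control libraries. Replicate 3 was the highest in both groups and the ranges overlapped. The log2 fold change was 0.51 (SE 0.39, 95% interval -0.32 to 1.34, edgeR adjusted p = 0.344), and it moved with single libraries: without control replicate 3 it was 1.17 and passed (edgeR adjusted p = 0.0295), without KO-labelled replicate 3 it was 0.16 (0.81), and without control replicate 1 it was 0.23 (0.724). *Neurog3* overlaps *Fam241b*, which is read from the other strand (log2 fold change 0.42, edgeR adjusted p = 0.0738). The counts were made by strand.

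Levels per kilobase of exon (RPKM) put the genes in order within each group. In KO-labelled libraries *Zbtb16* had 15.7 ± 3.30 RPKM (SD, n = 3), *Etv5* 15.6 ± 1.86 RPKM and *Sall4* 13.1 ± 3.21 RPKM, and the ranges of these neighbours overlapped. *Sox3* (6.09 RPKM), *Id4* (5.95 RPKM) and *Cdh1* (5.61 RPKM) came next, also with overlapping ranges. *Bcl6b* (2.68 RPKM) and *Neurog3* (1.69 RPKM) overlapped too, and *Eomes* (0.826 RPKM) and *Pax7* (0.399 RPKM) were lowest, apart from each other and from the rest. In control libraries *Zbtb16* (14.2 RPKM) and *Sall4* (13 RPKM) stood above *Etv5* (9.48 RPKM), which overlapped with *Sox3* (9.14 RPKM). Below them *Id4* (5.78 RPKM) was separate, *Cdh1* (2.16 RPKM), *Bcl6b* (1.91 RPKM) and *Neurog3* (1.18 RPKM) overlapped as neighbours, and *Pax7* (0.244 RPKM) and *Eomes* (0.192 RPKM) were lowest and overlapped. *Etv5* was thus in the top group with *Zbtb16* in KO-labelled libraries but below *Sall4* in control libraries, and *Cdh1* was level with *Id4* only in KO-labelled libraries.

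The share of each gene relative to *Zbtb16* in the same library does not depend on how libraries are scaled. *Eomes* was 0.0544, 0.0444 and 0.0307 of *Zbtb16* in KO-labelled libraries and 0.0102, 0.00675 and 0.0144 in control libraries, a ratio of means of 4.13. *Cdh1* was 0.389, 0.300 and 0.267 of *Zbtb16* in KO-labelled libraries and 0.141, 0.117 and 0.135 in control libraries, a ratio of means of 2.43. *Sox3* was 0.130, 0.161 and 0.159 in KO-labelled libraries and 0.251, 0.231 and 0.268 in control libraries, a ratio of means of 0.60. For these 3 genes the groups did not overlap, and no choice of scaling can change that.

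*Sall4* was 0.874 ± 0.0304 of *Zbtb16* in KO-labelled and 0.956 ± 0.0320 in control libraries (SD, n = 3 each), a small difference without overlap. *Etv5* and *Pax7* were higher relative to *Zbtb16* in every KO-labelled library, with ratios of means of 1.54 and 1.46. *Id4*, *Bcl6b* and *Neurog3* overlapped. In all, 6 of the 9 ratios did not overlap between groups, 4 of them higher in KO-labelled libraries, beside 28.6% of all other genes tested in ratio to *Zbtb16*. These ratios are given as a description and were not tested.

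**Figure D2:**
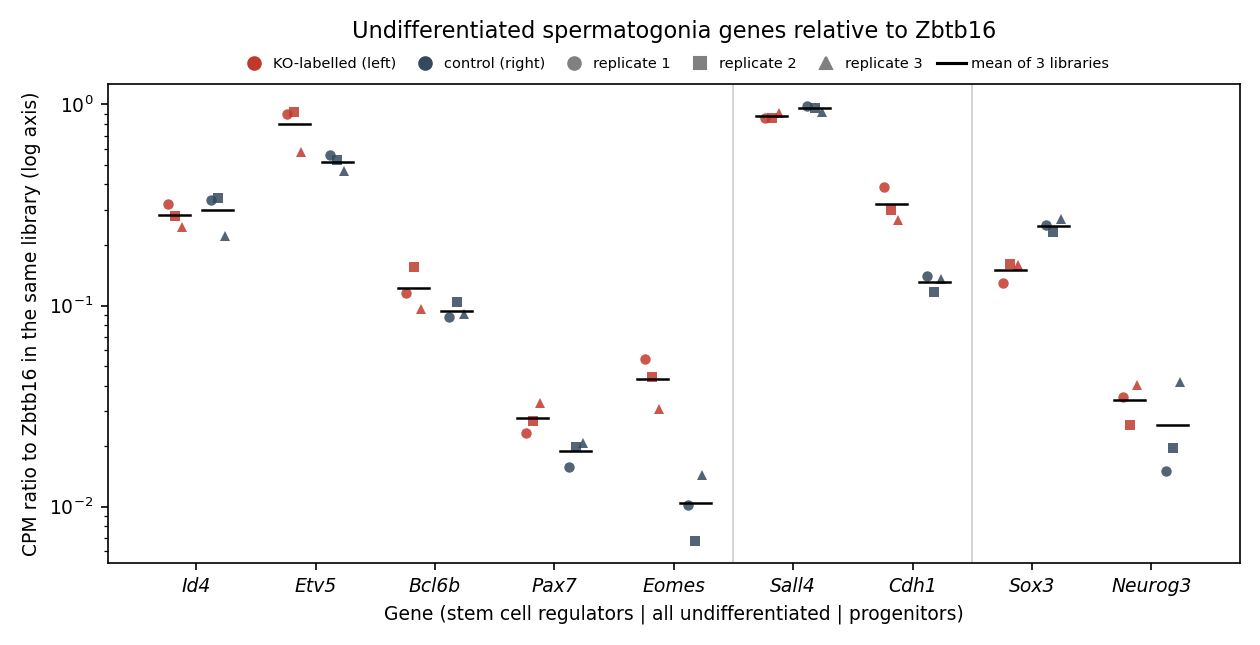
CPM of 9 genes divided by the CPM of *Zbtb16* in the same library (log axis), KO-labelled libraries left of control libraries, with lines for means of 3 libraries. *Eomes*, *Cdh1*, *Etv5* and *Pax7* lie higher and *Sox3* and *Sall4* lower in all KO-labelled libraries, *Sox3* from 0.130 to 0.161 against 0.231 to 0.268.

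A shared order among the KO-labelled libraries was seen in part of the genes. For *Id4*, *Pax7*, *Zbtb16*, *Sall4* and *Sox3*, KO-labelled replicate 1 was lowest and replicate 3 highest, that is for 5 of the 10 genes, beside 21.8% of all genes tested. The same order held for all 7 of the germ cell genes *Ddx4*, *Dazl*, *Dnd1*, *Mov10l1*, *Piwil2*, *Tdrd1* and *Tex14*, whose summed level was 545, 639 and 732 CPM in KO-labelled libraries and 1430, 1570 and 1380 CPM in control libraries. *Etv5*, *Bcl6b*, *Cdh1*, *Eomes* and *Neurog3* did not follow that order. The part of the germ cell level in the spread of the 5 genes was not tested.

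Marker genes of other testis cells differed between the groups. Under TMM scaling, 5 of the 7 germ cell genes were lower, with a median log2 fold change of -0.76, and *Dazl*, an RNA-binding protein gene of germ cells, was lowest at -1.66 (edgeR adjusted p = 1.8e-07). Of 8 genes of differentiating spermatogonia 6 were lower, led by *Rhox13*, *Esx1* and *Dmrtb1*, and all 10 meiotic prophase genes were lower, led by *Sycp2*, *Tex15* and *Meiob*. With germ cell scaling, 4 of these 8 were lower and 3 higher (median -0.22), and 8 of these 10 were lower; of the 7 germ cell genes 4 were then higher and 1 lower. *Kit*, the receptor that marks the step from undifferentiated to differentiating cells, had 110 CPM in KO-labelled and 122 CPM in control libraries on average and did not pass (log2 fold change -0.14, adjusted p = 0.152). All 10 Sertoli cell genes were higher, led by *Dhh*, *Amh* and *Sox9*, with a summed level of 9100 to 9970 CPM in KO-labelled and 5710 to 6020 CPM in control libraries. Of the other somatic lists, 4 of 6 Leydig cell genes, 2 of 4 endothelial genes and 3 of 4 macrophage genes were higher, and 3 of 4 peritubular myoid genes were lower. With 1 library left out, the counts higher were 2 to 5 for Leydig cells, 1 to 2 for endothelium and 2 to 3 for macrophages, and 1 to 3 myoid genes were lower. DESeq2 called 3 Leydig, 2 endothelial and 2 macrophage genes higher and 2 myoid genes lower. With somatic scaling, 3 of the 10 Sertoli and 1 of the 6 Leydig cell genes were higher, 1 of each was lower, all 4 myoid genes and 1 endothelial gene were lower, and edgeR called 0 endothelial and 0 macrophage genes higher (0 of each also at an unadjusted p under 0.05). With germ cell scaling all genes of these 5 somatic lists were higher, the myoid genes included, beside 75.1% of all genes tested. The part of these shifts in the values of the 10 genes was not tested.

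For 6 of the 10 genes the direction depends on the scaling, and 4 (*Eomes*, *Cdh1*, *Etv5* and *Pax7*) had a log2 fold change above 0 under every setting tried. The summed markers of 5 somatic cell types are mostly those of Sertoli cells (81.3% to 82.7% of the sum in KO-labelled and 73.4% to 75.3% in control libraries), and *Clu* alone gives 49.5% to 52.0% and 44.9% to 46.3%. Counts of Sertoli cell genes under that scaling are therefore partly set by it. With the libraries scaled to this sum, the median log2 fold change of all genes moved to -0.59, 1.27% of all genes were called higher and 56.6% lower. On that scale *Eomes* (1.53) and *Cdh1* (0.82) were still higher, *Etv5* (0.15) did not pass, and *Id4* (-0.52), *Zbtb16* (-0.42), *Sall4* (-0.54) and *Sox3* (-1.14) were lower. With the libraries scaled to the summed germ cell genes, of which *Dazl* gives 35.8% to 40.4% in KO-labelled and 51.4% to 54.4% in control libraries, the median of all genes moved to 1.18, 75.1% of all genes were called higher and 1.31% lower. On that scale all 10 genes were called higher, from 0.57 for *Sox3* to 3.29 for *Eomes*. A change of scaling moves all genes by nearly the same amount, so a difference relative to the median of all genes is almost fixed by construction. Under TMM it was 2.12 for *Eomes*, 1.40 for *Cdh1*, 0.74 for *Etv5* and -0.56 for *Sox3*.

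**Figure D3:**
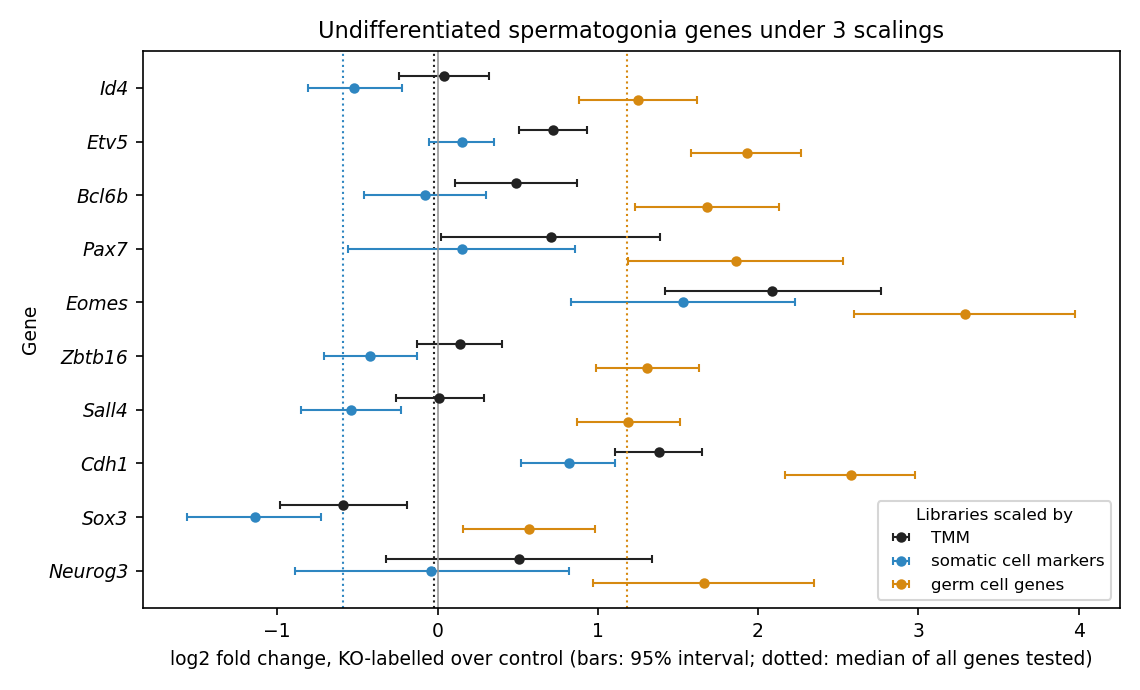
log2 fold changes of the 10 genes, KO-labelled over control, with 95% intervals, after scaling the libraries by TMM, by somatic cell markers or by germ cell genes; dotted lines give the median of all 20327 genes under each scaling, at -0.02, -0.59 and 1.18. *Eomes* and *Cdh1* lie above 0 under all 3, while *Id4*, *Bcl6b*, *Zbtb16*, *Sall4*, *Sox3* and *Neurog3* change side.

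Other genes of undifferentiated spermatogonia were read from the same fit. Of 20 such genes under TMM scaling, 9 were higher and 3 lower, with a median log2 fold change of 0.45. *Ccnd2*, a D-type cyclin gene (0.72, adjusted p = 1.1e-05), *Itga6*, the laminin-binding integrin used to enrich stem cells (0.68, adjusted p = 5.7e-05), and *Dusp6*, a phosphatase induced by ERK signalling (0.62, adjusted p = 1.2e-04), were the highest by p. *Uchl1*, a ubiquitin hydrolase gene (-0.63, adjusted p = 5.8e-05), *Taf4b*, a TFIID subunit gene of gonads (-0.67, adjusted p = 7.1e-05), and *Rarg*, the retinoic acid receptor of progenitors (-0.50, adjusted p = 0.0496), were lower, all from edgeR. The *Rarg* groups overlapped, with 8.55, 10.4 and 12.6 CPM in KO-labelled and 13, 12.4 and 19.4 CPM in control libraries. Its call was lost with DESeq2 (adjusted p = 0.0565), limma-voom (0.0525), RLE factors (0.0501) and upper-quartile factors (0.0584), and without KO-labelled replicate 1 (0.164) or 2 (0.118) or control replicate 3 (0.28). With somatic scaling 1 of the 20 was higher and 6 were lower, beside 1.27% and 56.6% of all genes tested. With germ cell scaling 19 were higher, beside 75.1% of all genes tested. Under TMM scaling, among 7 GDNF-responsive genes of cultured stem spermatogonia, 5 were higher, led by *Egr2* (0.83, adjusted p = 1.1e-04), *Lhx1* (1.02, adjusted p = 0.00189) and *Mycn* (0.41, adjusted p = 0.00342). DESeq2 called 4 of the 7 higher. With somatic scaling 2 of the 7 were lower and edgeR called 0 higher (1 at an unadjusted p under 0.05). Of all genes tested, 56.6% were lower and 1.27% higher on that scale. With germ cell scaling all 7 were higher, beside 75.1% of all genes tested.

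Paralogs and partners of the 10 genes were counted as well. Of 27 tested under TMM scaling, 13 were higher and 1 was lower, with a median log2 fold change of 0.30. With somatic scaling 2 were higher and 14 lower, beside 1.27% and 56.6% of all genes tested. With germ cell scaling 23 were higher, beside 75.1% of all genes tested. Led by p under TMM scaling were *Id2* (0.84, adjusted p = 8.7e-06), *Id3* (0.85, adjusted p = 1.7e-05) and *Sall2* (0.83, adjusted p = 7.7e-05). *Id1* was higher too (0.86, adjusted p = 6.0e-04), and the 3 *Id* genes are widely made in somatic cells. *Id4* was 0.145, 0.167 and 0.215 of *Id2* in KO-labelled libraries and 0.319, 0.336 and 0.248 in control libraries, which did not overlap. *Sall4* likewise was 2.71 ± 0.818 times *Sall2* in KO-labelled libraries and 4.71 ± 0.460 times in control libraries (SD, n = 3 each), without overlap. *Id2* and *Sall2* were named for their small p in this same fit, and both rose while *Id4* and *Sall4* did not pass. Lower ratios therefore follow from the choice of denominator and add nothing on *Id4* or *Sall4*. Of the 4 catenin genes on the list, whose products bind cadherins or each other, *Ctnnd1* (0.50), *Jup* (0.30) and *Ctnnb1* (0.24) were higher, and *Ctnna1* (0.01) did not pass. *Zbtb32*, the PLZP repressor gene related to *Zbtb16*, was the 1 that was lower (-1.14, adjusted p = 0.00616).

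**Figure D4:**
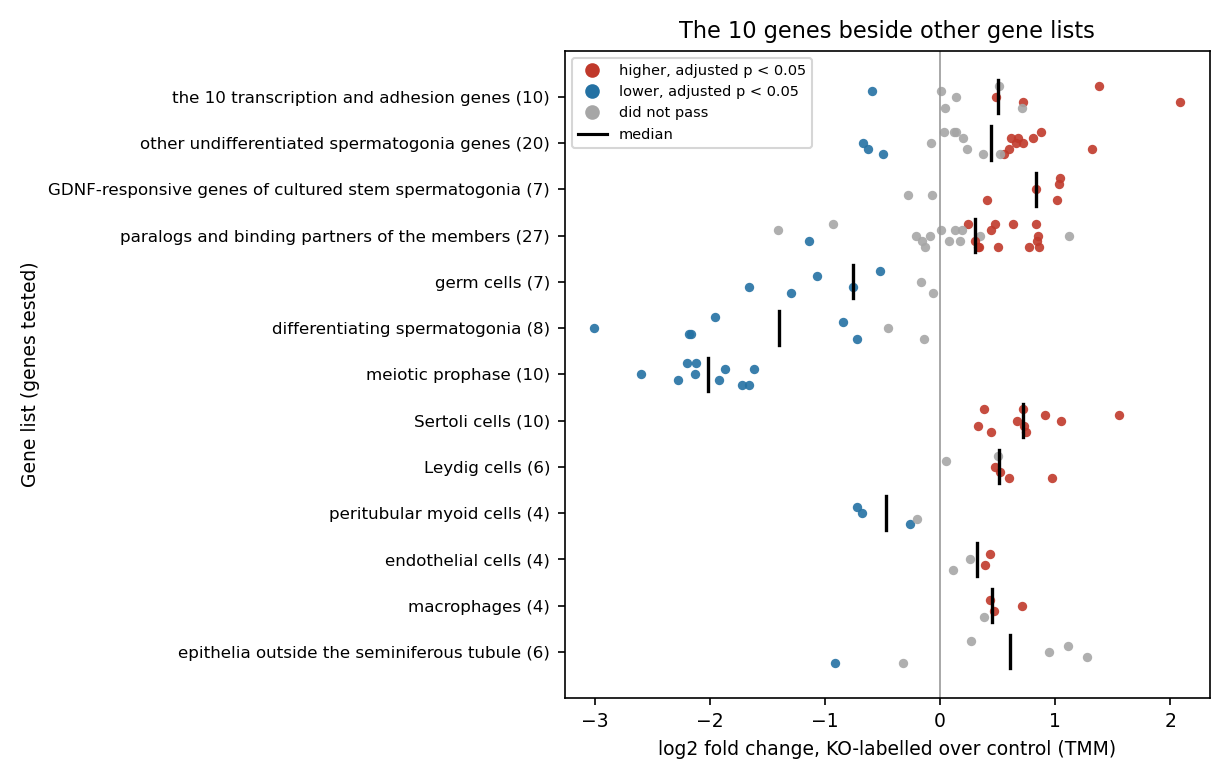
log2 fold change (TMM, KO-labelled over control) of each tested gene of the 10 and of 12 other lists, coloured by the edgeR call, with a line at each list's median. The medians lie at 0.50 for the 10 genes, 0.45 for other undifferentiated spermatogonia genes, -1.40 for differentiating spermatogonia, -2.02 for meiotic prophase and 0.72 for Sertoli cells.

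For each of the 10 genes, the protein-coding gene with a mean of at least 5 CPM whose log2 CPM followed it most closely over the 6 libraries was found among 11358. These are descriptions over 6 libraries in 2 groups, so a shared group difference alone gives a high value. *Etv5* was most like *Socs2* (Pearson's r = 0.9987), *Cdh1* like *Kank2* (0.9986) and *Eomes* like *Tada3* (0.9998), and 712, 709 and 531 genes reached r = 0.95 with them. Genes whose groups overlapped had few such neighbours, 13 for *Id4* (closest *Cep19*, 0.9880), 15 for *Zbtb16* (*Six4*, 0.9878), 9 for *Sall4* (*Kcnip1*, 0.9852), 31 for *Pax7* (*Bccip*, 0.9902) and 2 for *Neurog3* (*Prag1*, 0.9788). *Bcl6b* was most like *Evl* (0.9913, 48 genes) and *Sox3* like *Yars2* (0.9945, 115 genes).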

How the data were processed

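Stranded libraries of total RNA from P12 testes, depleted of unwanted transcripts, were read from 1 end by the authors. They used cutadapt for trimming, HISAT2 for alignment to GRCm38.p5 and featureCounts 1.6.4 for counting on the gene's own strand over GENCODE M18. The deposited values are raw counts. The 3 libraries per group are called biological replicates in the study, and how many animals each holds is not given in the sources used here. P-values measure the spread between these libraries.

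The test was edgeR 4.0.16 under R 4.3.3, with TMM factors, filterByExpr and the quasi-likelihood fit, checked on simulated counts first. The standard error is the size of the log2 fold change divided by the square root of F. GENCODE M21 gave names for 54165 of the 54232 gene IDs. CPM in correlations carry a prior count of 1 on the log2 scale. RPKM divide CPM by the summed exon length of the table. Pandas 2.3.3 and matplotlib 3.10.9 made tables and plots.

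The genes and lists were chosen with earlier results of these data known. All 10 genes are named, with up to 3 genes per list and direction by smallest adjusted p and the most similar gene of each. *Id1*, *Kit*, *Epcam*, the keratins, *Pax8*, *Jup*, *Ctnnb1*, *Ctnnd1*, *Ctnna1*, *Cdh3* and the neighbouring genes were named after their values were seen. Alternatives were DESeq2 1.42.0, limma-voom (limma 3.58.1), other factors and filters, a replicate block and each library left out.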

Additional observations from a re-analysis of the deposited data

How the results depend on the processing

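*Cdh1* and *Eomes* kept their direction and their call under all 18 alternatives, 2 of which (scaling to geometric means) were chosen after seeing the data. *Etv5* lost its call once, with libraries scaled to the sum of somatic markers (0.15, adjusted p = 0.173 from edgeR). That scaling called 11766 genes in place of 6641 (258 higher, 11508 lower), and of the 10 genes 2 higher and 4 lower; scaling to the sum of germ cell genes called 15527 (15261 higher, 266 lower) and 10 of the 10, with 10 higher and 0 lower. Scaling to the geometric mean of somatic markers gave 490 higher and 9062 lower genes, with 3 of the 10 higher and 3 lower. The geometric mean of germ cell genes gave 13354 called (12774 higher, 580 lower), with 9 of the 10 called, 9 higher and 0 lower. Leaving out 1 library at a time, 3 to 5 of the 10 genes were called, 3 to 5 higher and 0 to 1 lower, and 4948 to 6669 genes in all.

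Directions turned as follows on the log2 scale. With the sum of somatic markers *Id4* was -0.52, *Zbtb16* -0.42, *Sall4* -0.54, *Bcl6b* -0.08 and *Neurog3* -0.04; with their geometric mean *Id4* was -0.38, *Zbtb16* -0.28 and *Sall4* -0.40. With germ cell genes *Sox3* was 0.57 by sum and 0.18 by geometric mean. *Sall4*, at 0.01 under TMM, was -0.01 with limma-voom, -0.01 with at least 10 counts in every library and -0.02 over protein-coding genes only. With 1 library left out the ranges were -0.09 to 0.18 for *Id4*, -0.03 to 0.27 for *Zbtb16* and -0.19 to 0.16 for *Sall4*. *Bcl6b* also lost its call with at least 10 counts in every library (adjusted p = 0.0566) and over protein-coding genes only (0.0599). The cause of these changes was not tested.

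Deviations of libraries with the same replicate number were unrelated (r of -0.0014, -0.0126 and 0.0139 over genes), and pairing by number is not supported. With the replicate number as a block, 6561 genes were called, 3271 higher and 3290 lower, with 4 of the 10 genes higher and 1 lower as without the block, and *Sall4* was -0.01. *Pax7*, *Eomes* and *Neurog3* had the fewest counts of the 10 genes and the widest intervals; *Neurog3* varied by 63.9% (coefficient of variation) in control and *Pax7* by 38.4% in KO-labelled libraries. Without a library, 8 to 10 of the 20 other undifferentiated spermatogonia genes and 4 to 5 of the 7 GDNF-responsive genes were higher.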
